A study of Mus musculus with 6 samples.

Results

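The 10 genes described here carry the fusion, the fission and the biogenesis of mitochondria, and they were taken by symbol from the 54886 genes listed in the files. They are Mfn1, Mfn2 and Opa1 (fusion), Dnm1l and Fis1 (fission), Ppargc1a, Nrf1, Tfam and Polg (biogenesis and upkeep of mitochondrial DNA) and Pink1 (mitophagy). Each symbol matched 1 Ensembl gene in GENCODE M21, and 9 of the 10 genes passed the filter on low values, a mean FPKM of at least 1 over all libraries. Ppargc1a did not. The cells were GC-2spd, a cell line of BALB/c background derived from mouse spermatocytes. In the control group, 3 libraries came from cells labelled untreated (PM2.5 at 0 μg/mL), kept in normal medium per the labels and in medium with PBS, the vehicle of the particles, per the study's methods, and in the PM2.5 group 3 libraries came from cells of the same line exposed for 48 h to 100 μg/mL of PM2.5. The study asked whether PM2.5 damages the mitochondria of such cells. The study's methods speak of 3 experiments for quantitative data in general, but do not say that the sequencing libraries came from separate cultures. The p-values therefore measure the spread between these libraries only, which may be technical.

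Mitochondria form a network that is shaped by fusion and fission. The outer membranes are joined by the GTPases mitofusin 1 and mitofusin 2 (Mfn1, Mfn2) and the inner membranes by the GTPase OPA1. Fission is carried out by the dynamin-related GTPase DRP1 (Dnm1l), which is recruited to the outer membrane by adaptors, while FIS1 is an outer-membrane protein of the same process. New mitochondria are built under PGC-1α (Ppargc1a), a coactivator that works with nuclear respiratory factor 1 (Nrf1, not to be confused with the NFE2-like factors behind the antioxidant response). NRF1 drives nuclear genes of mitochondrial proteins, among them Tfam, whose product packages mitochondrial DNA and starts its transcription. POLG copies mitochondrial DNA, and the kinase PINK1 marks damaged mitochondria for removal. Spermatocytes change the shape and the number of their mitochondria as they pass through meiosis.

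Reads were recovered from the steps between low FPKM values (FPKM is fragments per kilobase of gene length, scaled to the depth of the library), and the libraries held 16209352 to 18003201 reads. Control replicate 2 stood apart. Across the 11884 genes tested, its Pearson's r of log2(FPKM + 1) with the other libraries lay between 0.732 and 0.779, against 0.9502 to 0.992 for all other pairs. The mitochondrial chromosome held 14.5% of its reads, against 1.65% to 1.95% elsewhere. PM2.5 replicate 3 correlated better with control replicates 1 and 3 (r = 0.972 with each) than with PM2.5 replicates 1 and 2 (0.9502 and 0.958). Of 10 spermatocyte markers (such as Sycp3, Dmc1 and Ddx4), 0 passed the filter and 4 were listed at 0 in every library (Dazl, Hormad1, Piwil1 and Spo11), so that the labelled cell type was not borne out by these markers. Their summed FPKM was at most 0.612 in the other libraries and 2.59 in control replicate 2. The summed FPKM of 5 peritubular and fibroblast markers, among them Col1a1 and Acta2, was 669 to 757 in the control group and 375 to 639 in the PM2.5 group. Of 4 macrophage markers, Ptprc and Adgre1 were at 0 in all libraries and only Cd68 passed, with a sum of 15.5 in control replicate 2 and at most 1.87 elsewhere. Of 6 Sertoli markers, Gata4 passed (sum 18.0 to 19.2 against 12.3 to 23.7), and of 5 Leydig markers, Star (2.01 to 2.59 against 1.74 to 1.89). The part of these differences between libraries in the values below was not tested. All values are therefore given with and without control replicate 2.

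The upstream sequences of 6 of the genes hold the letters that NRF1, itself among the 10 genes, or the ETS factor GABPA is known to bind, and 4 of these are shown. Those of Tfam and Polg are not shown because 236 and 89 of their bases lie within the GENCODE gene, against at most 17 in the others. The 250 bases before the RefSeq start site (mouse build GRCm38.p6, 5′ to 3′) were read for each of the 10 genes from the start site nearest the GENCODE 5′ end. They were searched on both strands for TGCGCA (NRF1 core), CCGGAA (ETS core), AAGGTCA (core of the estrogen-related receptors, partners of PGC-1α) and GCGTG (core of the aryl hydrocarbon receptor), and no 2 different motifs overlapped in these windows. Capitals mark TGCGCA and CCGGAA or its reverse complement.
Mfn1 (chr3:32529232-32529481, plus strand, 1 ETS core): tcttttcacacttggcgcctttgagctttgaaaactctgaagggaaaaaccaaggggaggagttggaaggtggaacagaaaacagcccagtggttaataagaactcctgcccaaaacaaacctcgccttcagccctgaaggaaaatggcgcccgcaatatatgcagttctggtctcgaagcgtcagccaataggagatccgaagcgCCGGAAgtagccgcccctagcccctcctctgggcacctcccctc
Opa1 (chr16:29579084-29579333, plus strand, 1 NRF1 core): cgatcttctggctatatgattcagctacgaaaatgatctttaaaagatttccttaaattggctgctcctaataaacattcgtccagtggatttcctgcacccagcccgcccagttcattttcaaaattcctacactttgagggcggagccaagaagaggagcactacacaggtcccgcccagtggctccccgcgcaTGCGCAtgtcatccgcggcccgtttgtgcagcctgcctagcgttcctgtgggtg
Fis1 (chr5:136953025-136953274, plus strand, 1 NRF1 core and 1 ETS core): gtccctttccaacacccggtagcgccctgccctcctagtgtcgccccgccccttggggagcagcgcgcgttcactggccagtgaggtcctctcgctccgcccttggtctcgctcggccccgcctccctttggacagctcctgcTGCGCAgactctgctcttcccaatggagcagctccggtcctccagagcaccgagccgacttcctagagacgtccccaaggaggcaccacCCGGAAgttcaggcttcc
Pink1 (chr4:138326297-138326546, minus strand, 1 NRF1 core): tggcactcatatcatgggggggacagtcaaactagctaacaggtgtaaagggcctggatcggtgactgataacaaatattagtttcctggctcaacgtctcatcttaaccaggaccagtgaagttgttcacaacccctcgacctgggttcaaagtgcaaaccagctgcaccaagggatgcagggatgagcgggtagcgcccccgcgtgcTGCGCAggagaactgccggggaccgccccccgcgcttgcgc

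The NRF1 core stood in the windows of Opa1, Fis1 and Pink1, 3 of the 10, and in 7.75% of the 20580 gene windows of the same length. The ETS core stood in those of Mfn1, Fis1, Tfam and Polg, 4 of the 10, and in 14.2% of all windows. The AhR core was found in 5 of the 10 (Mfn2, Nrf1, Tfam, Polg and Pink1) and in 31.9% of all windows, and the core of the estrogen-related receptors in 0 of the 10 and 3.698% of all. A match describes letters and not a bound site. The 3 genes with an NRF1 core did not move together between libraries. In control replicate 2, Fis1 and Pink1 were high and Opa1 was low.

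The levels of the 10 genes, compared per gene length as FPKM, spanned from abundant to barely detected. Over the 5 libraries without control replicate 2, Fis1 had the highest mean FPKM (40.9), followed by Dnm1l (25.4), Tfam (21.2), Mfn2 (20.98), Mfn1 (17.3) and Opa1 (15.5). Polg (6.48), Pink1 (6.43) and Nrf1 (5.41) formed a lower tier, and Ppargc1a lay at 0.120. In these 5 libraries the range of Fis1 (33.4 to 45.7) lay above that of Dnm1l (20.2 to 30.2), and that of Mfn2 (19.3 to 22.1) above that of Mfn1 (16.4 to 18.3). The ranges of the neighbours Dnm1l and Tfam, Tfam and Mfn2, Mfn1 and Opa1, Polg and Pink1, and Pink1 and Nrf1 overlapped.

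**Figure D1:**
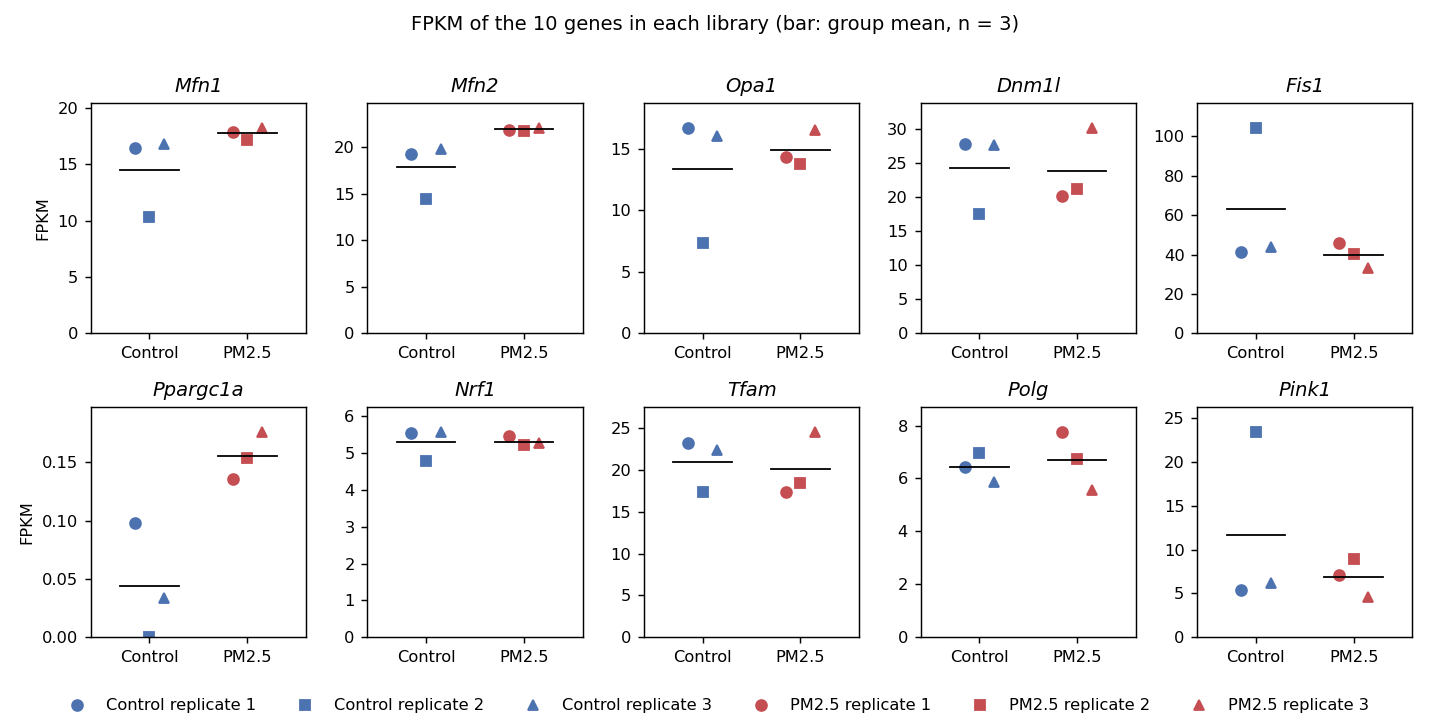
FPKM of each of the 10 genes (vertical axes from 0, each gene with its own scale) in the 3 control (blue) and the 3 PM2.5 libraries (red), with the marker giving the replicate number and the bar the group mean. Mfn1 and Mfn2 lie higher in every PM2.5 library than in every control library, while control replicate 2 (blue square) is the lowest library for Opa1 and the highest for Fis1 and Pink1.

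None of the 9 tested genes passed the test between the PM2.5 group and the control group. In limma on log2(FPKM + 1), with Benjamini-Hochberg adjustment over all genes tested, 0 of the 9 had an adjusted p-value under 0.05 and 0 had an unadjusted p-value under 0.05. Of all genes tested, 0.0926% were called and 3.8% had an unadjusted p-value under 0.05. The 11 called genes were 4 higher (0.0337%) and 7 lower (0.0589%) in the PM2.5 group, or 3 and 3 with scaling to the read totals. Without control replicate 2, again 0 of the 9 were called and 0 had an unadjusted p-value under 0.05, against 0.993% and 15.9% of all genes tested (0.286% called higher and 0.707% lower). On the reads, voom in limma also gave 0 of 9 in both fits. The median log2 fold change of the 9 genes was 0.0049 with all libraries and -0.055 without control replicate 2, beside 0.020 and -0.011 over all genes tested. The log2 fold changes without control replicate 2 lay between -0.23 and 0.17, and each had a 95% confidence interval that included 0. Fold changes are given with their standard errors (SE). The pseudocount of 1 understates the fold changes of the genes with a low FPKM.

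**Figure D2:**
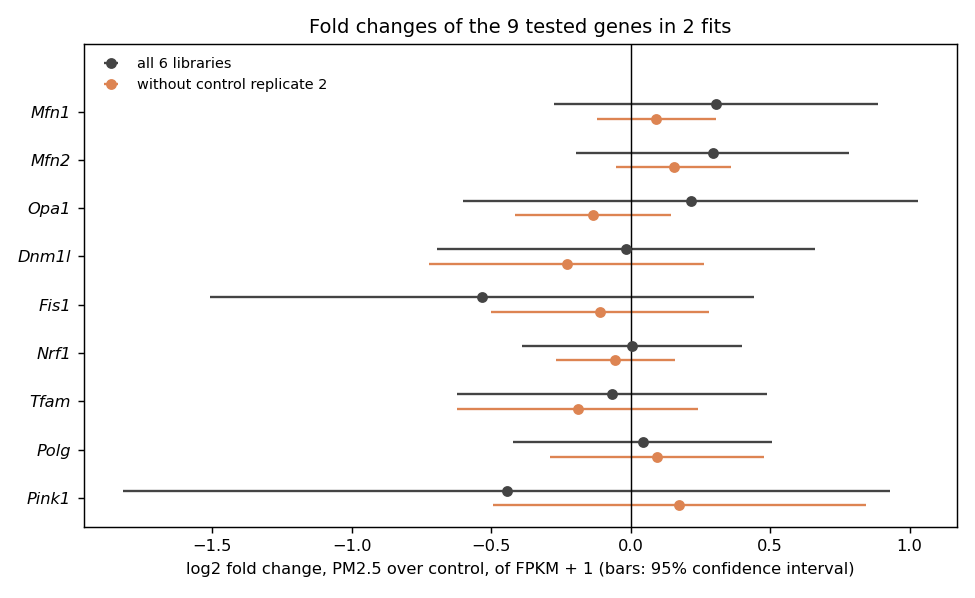
Log2 fold change of FPKM + 1 (horizontal axis, PM2.5 over control) of the 9 tested genes with its 95% confidence interval, for all 6 libraries (grey) and without control replicate 2 (orange). Every interval crosses 0, and the intervals of Fis1, Pink1, Opa1 and Mfn1 narrow most when control replicate 2 is left out.

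The mitofusins were higher in each PM2.5 library than in each control library, by a small amount. Mfn2 (chromosome 4, 147873599 to 147904704), the mitofusin that also tethers mitochondria to the endoplasmic reticulum, had an FPKM of 19.3, 14.4 and 19.8 in control replicates 1, 2 and 3. In PM2.5 replicates 1, 2 and 3 it had 21.8, 21.8 and 22.1. The PM2.5 libraries were all high and close together, and the groups did not overlap. The group means were 17.9 ± 3.001 (SD, n = 3) and 21.9 ± 0.182 (SD, n = 3). Its log2 fold change was 0.29 (SE 0.20, limma adjusted p = 0.875). It was 0.15 when control replicate 2 was left out (SE 0.081, 95% confidence interval -0.051 to 0.36, limma adjusted p = 0.425).

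For Mfn1 (chromosome 3, 32529465 to 32579239), the GTPase that docks outer membranes to each other, the FPKM was 16.4, 10.3 and 16.8 in control replicates 1, 2 and 3. It was 17.9, 17.2 and 18.3 in PM2.5 replicates 1, 2 and 3. Control replicate 2 was the low library, and the groups did not overlap with or without it. The log2 fold change of 0.31 (SE 0.24, limma adjusted p = 0.875) was 0.092 without that library (SE 0.084, 95% confidence interval -0.12 to 0.31, limma adjusted p = 0.624). Every PM2.5 library lay above every control library in 2 of the 9 genes and in 8.35% of all genes tested, and below in 0 of the 9 and 6.85% (15.2% in either direction). With control replicate 2 left out, 2 of the 9 lay above (17.7% of all genes) and 1 below (19.6%), or 37.3% of all genes in either direction. The log2 fold changes of both mitofusins were positive in every fit made, with scaling to the read totals and quantile normalization included. As their groups did not overlap, leaving out libraries could not have changed this sign.

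Opa1 (chromosome 16, 29579334 to 29654884), which also keeps the cristae of the inner membrane closed, had an FPKM of 16.7, 7.39 and 16.1 in control replicates 1, 2 and 3. In PM2.5 replicates 1, 2 and 3 it had 14.3, 13.8 and 16.5. Control replicate 2 had less than any other library, and PM2.5 replicate 3 lay among the remaining controls. The direction of its log2 fold change depended on control replicate 2. It was 0.21 with it (SE 0.33, limma adjusted p = 0.879) and -0.14 without it (SE 0.11, 95% confidence interval -0.42 to 0.14, limma adjusted p = 0.583).

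Of the fission genes, Dnm1l was lower in PM2.5 replicates 1 and 2 than in control replicates 1 and 3, but not in PM2.5 replicate 3. The FPKM of Dnm1l (chromosome 16, 16312230 to 16358959) was 27.7, 17.4 and 27.6 in control replicates 1, 2 and 3, and 20.2, 21.2 and 30.2 in PM2.5 replicates 1, 2 and 3. The groups overlapped, with PM2.5 replicate 3 the highest and control replicate 2 the lowest of all libraries. The log2 fold change was -0.017 (SE 0.28, limma adjusted p = 0.984) and 0.11 with scaling to the read totals, and without control replicate 2 it was -0.23 (SE 0.19, 95% confidence interval -0.72 to 0.26, limma adjusted p = 0.601). Other genes share 9.51% of its 31-base sequences, and 4.67% of its exon bases lie opposite the gene Gm49521, which cannot be told apart where counting does not use the strand.

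Fis1 (chromosome 5, 136953275 to 136966234) was the most abundant of the 10 genes. It had an FPKM of 41.3, 104 and 43.9 in control replicates 1, 2 and 3. In PM2.5 replicates 1, 2 and 3 it had 45.7, 40.2 and 33.4. Control replicate 2 was 2.45-fold higher than the mean of the other controls, and the remaining libraries overlapped. With that library the log2 fold change was -0.53 (SE 0.40, limma adjusted p = 0.875), and without it -0.11 (SE 0.15, 95% confidence interval -0.50 to 0.28, limma adjusted p = 0.760).

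Among the genes of biogenesis, Nrf1 had the smallest SE of the 9 tested genes with all libraries, and Ppargc1a was close to the limit of detection. Nrf1 (chromosome 6, 30047988 to 30153458) had an FPKM of 5.53, 4.79 and 5.59 in control replicates 1, 2 and 3. It had 5.45, 5.23 and 5.26 in PM2.5 replicates 1, 2 and 3. With all libraries the groups overlapped, and without control replicate 2 every PM2.5 library lay below both controls, as did 19.6% of all genes tested. The log2 fold change was 0.0049 (SE 0.16, limma adjusted p = 0.992) and -0.055 without control replicate 2 (SE 0.084, 95% confidence interval -0.27 to 0.16, limma adjusted p = 0.778).

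For Ppargc1a (chromosome 5, 51454250 to 51567726), control replicates 1, 2 and 3 gave 12, 0 and 4 reads, and PM2.5 replicates 1, 2 and 3 gave 16, 18 and 21. These are FPKM of 0.0981, 0 and 0.0337 against 0.136, 0.154 and 0.176. The PM2.5 libraries were all higher than the control libraries, at a level of 55 reads among 51644925 in the PM2.5 group and 16 among 51724011 in the control group. How many genes under the filter had such an order of libraries was not counted. The 0 in control replicate 2 allows up to 3 reads (an FPKM of 0.0351), a limit that covers counting error only. As Ppargc1a did not pass the filter, it was tested only without a filter, with an adjusted p-value from limma of 0.807, and 0.597 without control replicate 2. Its relative Ppargc1b was as rare, with 7, 3 and 4 against 19, 11 and 10 reads. Without a filter its adjusted p-value from limma was 0.807, and 0.631 without control replicate 2.

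Tfam (chromosome 10, 71225464 to 71238280) followed the same order of libraries as Dnm1l, with 1 exception at the low end. Its FPKM was 23.3, 17.4 and 22.4 in control replicates 1, 2 and 3, and 17.4, 18.4 and 24.6 in PM2.5 replicates 1, 2 and 3. PM2.5 replicates 1 and 2 were low like control replicate 2, and PM2.5 replicate 3 was the highest library. The log2 fold change was -0.065 (SE 0.23, limma adjusted p = 0.934), 0.061 with scaling to the read totals, and -0.19 without control replicate 2 (SE 0.17, 95% confidence interval -0.62 to 0.24, limma adjusted p = 0.619). The summed FPKM of the mitochondrially encoded genes, whose transcription TFAM starts, was 13287 and 13999 in control replicates 1 and 3 and 157686 in control replicate 2. In PM2.5 replicates 1, 2 and 3 it was 13322, 15592 and 15945. Control replicate 2, with the highest mitochondrial sum, had a Tfam level near the lowest. PM2.5 replicate 3, with the next highest sum, had the highest Tfam level. A relation between Tfam and this sum was not tested.

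Polg (chromosome 7, 79446231 to 79466362) had an FPKM of 6.45, 6.95 and 5.87 in control replicates 1, 2 and 3 and 7.77, 6.74 and 5.56 in PM2.5 replicates 1, 2 and 3. The groups overlapped fully, and PM2.5 replicate 3 was the lowest library. The log2 fold change was 0.043 (SE 0.19, limma adjusted p = 0.948) and 0.094 without control replicate 2 (SE 0.15, 95% confidence interval -0.29 to 0.48, limma adjusted p = 0.788). Of its exon bases, 8.57% lie opposite the gene Fanci, and other genes share 7.42% of its 31-base sequences.

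Pink1 (chromosome 4, 138313409 to 138326307) had the largest SE of the 9 tested genes in both fits. Its FPKM was 5.40, 23.5 and 6.16 in control replicates 1, 2 and 3 and 7.12, 8.90 and 4.55 in PM2.5 replicates 1, 2 and 3. Control replicate 2 was 4.06-fold higher than the mean of the other controls, while PM2.5 replicate 3 was the lowest library. The direction of the log2 fold change again rested on control replicate 2, with -0.44 (SE 0.56, limma adjusted p = 0.875) with it and 0.17 without it (SE 0.26, 95% confidence interval -0.49 to 0.84, limma adjusted p = 0.774). The small gene Gm27646 and the microRNA gene Mir7019 share 6.70% of its exon bases on the same strand.

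The 2 libraries that stood apart did so for most of these genes. Control replicate 2 lay outside the range of the other 5 libraries for 7 of the 9 genes, as it did for 82.9% of all genes tested. Its absolute distance from the mean of control replicates 1 and 3 had a median of 0.64 in log2(FPKM + 1) for the 9 genes and 0.81 for all genes tested. PM2.5 replicate 3 was nearer to control replicates 1 and 3 than to PM2.5 replicates 1 and 2 for 6 of the 9 genes (Opa1, Dnm1l, Fis1, Tfam, Polg and Pink1), and for 64.4% of all genes tested. Mfn1, Mfn2 and Nrf1 were the genes in which the PM2.5 libraries stayed together.

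When PM2.5 replicate 3 was left out as well as control replicate 2, 5 of the 9 genes were called, and 47.1% of all genes tested (23.5% higher and 23.6% lower). Mfn2 and Pink1 were then higher in PM2.5 replicates 1 and 2, and Opa1, Dnm1l and Tfam were lower. The log2 fold changes were 0.15 for Mfn2 (SE 0.046, limma adjusted p = 0.0457) and 0.40 for Pink1 (SE 0.11, limma adjusted p = 0.0340). For Dnm1l it was -0.40 (SE 0.049, limma adjusted p = 0.0023), for Tfam -0.34 (SE 0.054, limma adjusted p = 0.0054) and for Opa1 -0.21 (SE 0.052, limma adjusted p = 0.0226). Only Mfn2 of these 5 kept its direction in PM2.5 replicate 3. That fit rests on 2 libraries against 2. PM2.5 replicate 3 is the library that stood apart from its group in these same values. The p-values of that fit therefore understate the spread within the PM2.5 group, and no difference is claimed from them. Leaving out any of the other 4 libraries beside control replicate 2 gave 0 of 9.

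**Figure D3:**
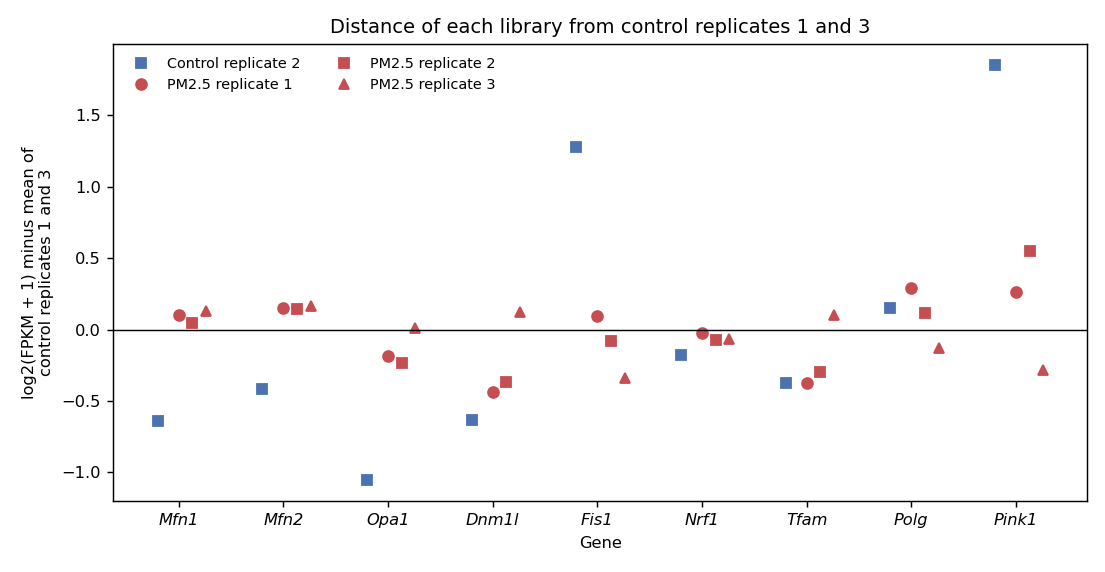
Distance of control replicate 2 (blue) and of each PM2.5 library (red) from the mean of control replicates 1 and 3, on the log2(FPKM + 1) scale (vertical axis), for the 9 tested genes. PM2.5 replicates 1 and 2 lie below 0 for Opa1, Dnm1l and Tfam and above 0 for Pink1 and Polg. PM2.5 replicate 3 (triangle) lies on the other side of 0 for each of these genes, for Opa1 by only 0.0096.

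Ratios within a library do not depend on the scaling between libraries, and they are given as values without a test. The ratio of the summed FPKM of Mfn1, Mfn2 and Opa1 to that of Dnm1l and Fis1 was 0.761, 0.263 and 0.737 in control replicates 1, 2 and 3. It was 0.821, 0.860 and 0.896 in PM2.5 replicates 1, 2 and 3. Every PM2.5 library was higher than every control library in this ratio, which weights the abundant Fis1 most. No share over other ratios was counted, and 15.2% of the single genes tested had groups that did not overlap (37.3% without control replicate 2). The parts of the ratio differed between the PM2.5 libraries. In FPKM, PM2.5 replicates 1 and 2 had less Dnm1l (20.2 and 21.2) than control replicates 1 and 3 (27.7 and 27.6). PM2.5 replicate 3 had the highest Dnm1l (30.2) and the lowest Fis1 (33.4) of all libraries. The ratio of Mfn1 to Mfn2 was 0.850, 0.717 and 0.849 in control replicates 1, 2 and 3 and 0.820, 0.791 and 0.827 in PM2.5 replicates 1, 2 and 3, so that Mfn2 exceeded Mfn1 everywhere. The ratio of Dnm1l to Fis1 was 0.671, 0.167 and 0.628 against 0.442, 0.526 and 0.904, and that of Tfam to Polg 3.61, 2.51 and 3.81 against 2.23, 2.74 and 4.43. In both of these ratios PM2.5 replicate 3 was the highest library and PM2.5 replicates 1 and 2 lay below control replicates 1 and 3.

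**Figure D4:**
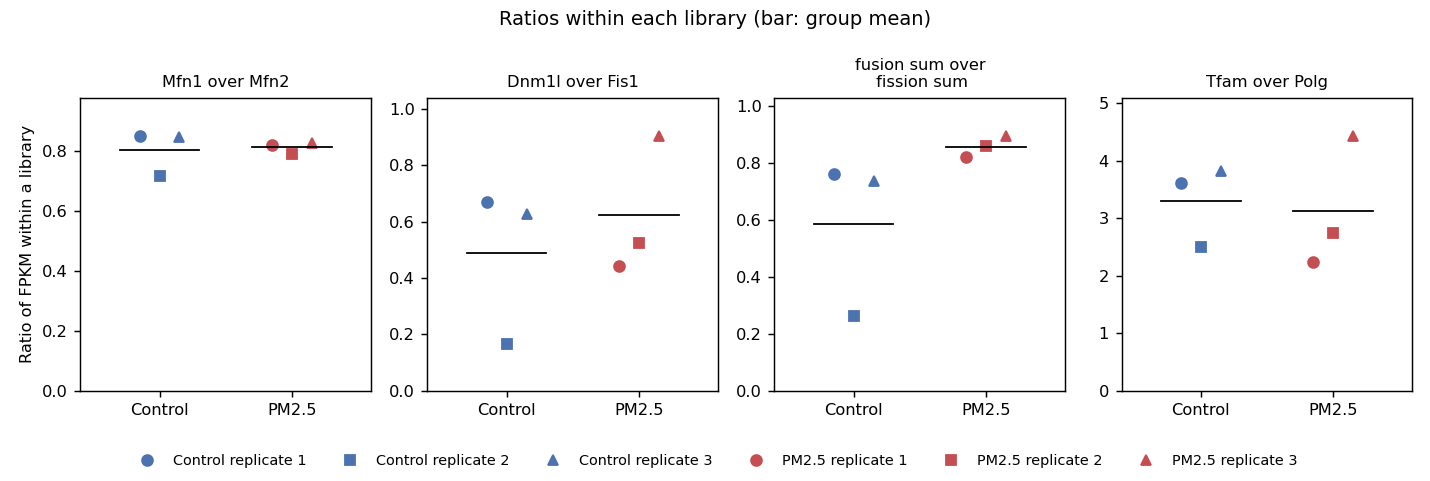
Ratios of FPKM within each library (vertical axes from 0) for the control (blue) and the PM2.5 libraries (red), with bars for the group means. The ratio of fusion to fission genes is 0.821 to 0.896 in the PM2.5 libraries and at most 0.761 in the control libraries, while PM2.5 replicate 3 (triangle) is the highest library for Dnm1l to Fis1 and for Tfam to Polg. No share over other ratios was counted.

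A wider list of 57 genes of the same processes was followed, of which 52 passed the filter. Pld6, Gdap1, Ppargc1b and Ppara were among those that did not. With all libraries, 0 of the 52 were called and 0 had an unadjusted p-value under 0.05. Without control replicate 2, 0 of the 52 were called by limma (0 by voom), and 7 had an unadjusted p-value under 0.05, where 15.9% of all genes tested did. They were 3 of 16 genes in the group of mitochondrial DNA transcription and copying and 4 of 11 mitophagy genes. Among the 3 was Clpp, a matrix protease that was listed in that group. The counts were 0 of 7 for OPA1 and fusion processing, 0 of 10 for fission and 0 of 8 for regulators of biogenesis. The median log2 fold change of the 52 genes was 0.013 without control replicate 2, with 27 positive and 25 negative. It was 0.035 with all libraries.

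With control replicate 2 left out, the largest log2 fold changes of the list in size were those of the mitophagy receptors Bnip3 and Bnip3l. Bnip3 had an FPKM of 94.5, 26.3 and 95.7 in control replicates 1, 2 and 3 and 40.9, 45.7 and 68.0 in PM2.5 replicates 1, 2 and 3. Control replicate 2 was the lowest library, and the other controls lay above all PM2.5 libraries. Leaving control replicate 2 out, its log2 fold change was -0.91 (SE 0.23, limma adjusted p = 0.179), and with it -0.30 (SE 0.55, limma adjusted p = 0.890). The FPKM of Bnip3l was 35.5, 19.5 and 33.2 against 17.3, 19.8 and 24.3. Its log2 fold change was -0.73 (SE 0.16, limma adjusted p = 0.136) without control replicate 2 and -0.47 with it. The other 2 mitophagy genes with an unadjusted p-value under 0.05, named after their values were seen, had the opposite sign. These were the prohibitin genes Phb, at 0.32 (SE 0.087, limma adjusted p = 0.191), and Phb2, at 0.48 (SE 0.13, limma adjusted p = 0.208), and the median of the 11 mitophagy genes was 0.14. With all libraries Phb was at 0.11, Phb2 at 0.23 and the median of the 11 genes at 0.11.

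Clpp, a protease of the mitochondrial matrix, had an FPKM of 22.1, 113 and 24.6 in control replicates 1, 2 and 3 and 33.3, 34.3 and 35.0 in PM2.5 replicates 1, 2 and 3. Its log2 fold change without control replicate 2 was 0.53 (SE 0.093, limma adjusted p = 0.0934), and -0.21 with that library. For Top1mt, the mitochondrial topoisomerase, the FPKM was 4.62, 6.23 and 4.45 against 7.18, 6.26 and 7.07. The groups did not overlap for this gene, as for 15.2% of all genes tested. Its log2 fold change was 0.37 (SE 0.19, limma adjusted p = 0.875), and 0.50 without control replicate 2 (SE 0.099, limma adjusted p = 0.115). Of the tested genes of the list named here, Spg7 and Mtfr1l also had groups that did not overlap, with the PM2.5 libraries lower. Clpp and Top1mt had the smallest unadjusted p-values of the list without control replicate 2.

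In the other groups, the highest log2 fold change without control replicate 2 was that of Esrra, a partner of PGC-1α named after its values were seen, at 0.55 (SE 0.45, limma adjusted p = 0.586). With all libraries the log2 fold change of Esrra had the opposite sign, -0.16 (SE 0.70). Its FPKM was 6.24, 30.0 and 5.94 in control replicates 1, 2 and 3 and 13.1, 13.1 and 4.64 in PM2.5 replicates 1, 2 and 3, so that the groups overlapped. Without control replicate 2 the log2 fold change of Parl, a rhomboid protease of the inner membrane that cleaves PINK1, was 0.28 (SE 0.13, limma adjusted p = 0.379). That of Spg7, a subunit of an inner-membrane protease, was -0.17 (SE 0.11). With all libraries Parl had 0.10 and Spg7 -0.26. Of the fission genes, the DRP1 adaptor Mff had -0.24 (SE 0.19) without control replicate 2 and -0.053 with it. For Mtfr1l the values were -0.17 (SE 0.082) and -0.14. Mff, like Dnm1l, was low in PM2.5 replicates 1 and 2 (8.07 and 9.56 FPKM) and high in PM2.5 replicate 3 (12.8, above both control replicates 1 and 3). Without control replicate 2 the deacetylase gene Sirt1, whose product acts on PGC-1α, had -0.34 (SE 0.15, limma adjusted p = 0.359). Pprc1, a relative of PGC-1α, had 0.22 (SE 0.13, limma adjusted p = 0.451). With all libraries Sirt1 had -0.12 and Pprc1 0.10.

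**Figure D5:**
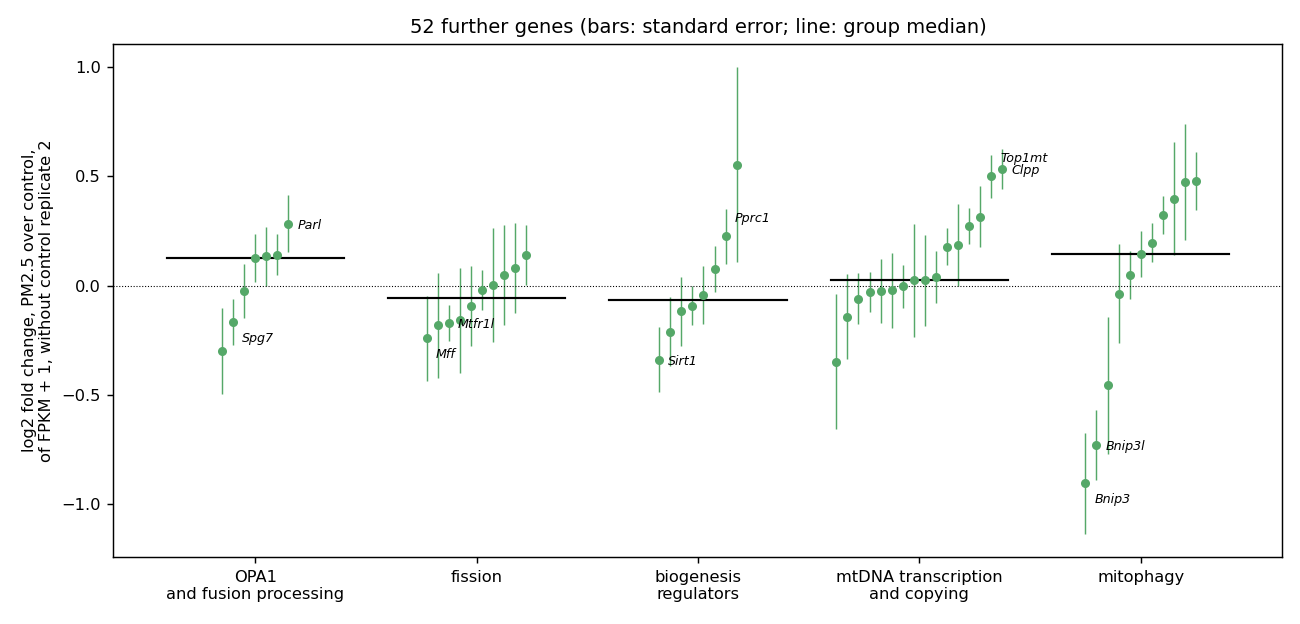
Log2 fold change of FPKM + 1 without control replicate 2 (vertical axis, bars for the standard error) of 52 further genes in 5 groups (horizontal axis), with a line for each group's median and names for the 2 genes of each group with the smallest p-value. The group medians lie between -0.068 and 0.14, and Bnip3 and Bnip3l are the lowest of all, at -0.91 and -0.73.

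Mfn2 had the smallest unadjusted p-value of the 9 genes without control replicate 2 (0.112 from limma). Over these 5 libraries, the tested genes outside both lists with the pattern most like it were Slc20a1, Gtf2h1 and Ddx21, with a Pearson's r of log2(FPKM + 1) of 0.9997, 0.999 and 0.998. With so few libraries, 340 of 11823 genes had an r of at least 0.95 with Mfn2, and the libraries share their grouping. In control replicate 2, which this likeness did not use, Mfn2 and Ddx21 were below every other library (14.4 and 28.0 FPKM), whereas Slc20a1 (9.06) and Gtf2h1 (18.2) were not.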

How the data were processed

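RNA sequencing of GC-2spd cells was used, with 3 control libraries and 3 libraries given PM2.5. Groups and replicate numbers came from the sample labels. According to the methods and the submitters' processing notes, the authors mapped reads with HISAT2 2.0.5 and counted them with featureCounts 1.5.0-p3, and deposited FPKM for each library. Differential expression was called by the authors with DESeq2. The notes name the build mm9, and the annotation release is not given in the sources used here. Positions and exon lengths printed here are those of GENCODE M21 (GRCm38). They cover 54495 of the 54886 genes and turned 98.1% to 98.4% of the values under 50 reads into whole reads (within 0.05 of a whole number). The scaling of the deposited FPKM was left as it was, also for control replicate 2, where the implied depth was 0.800 of the recovered reads (1.03 to 1.05 elsewhere).

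limma 3.58.1 (R 4.3.3, statmod 1.5.0, trend and robust options) was fitted on log2(FPKM + 1) with all libraries and without control replicate 2. The filter, a mean FPKM of 1 or more, left 11884 genes, over which Benjamini-Hochberg adjustment was made (threshold 0.05). voom was run on the recovered reads of the 11740 tested genes with a length. Alternatives were no filter, a pseudocount of 0.1, scaling to the read totals, quantile normalization, voom, a replicate block, a log2 fold threshold of 1 and leaving out each library. The computation was tested on simulated data, with the spread of the libraries without control replicate 2. The planted changes were larger than those of the genes described here, so this checks the code and not the power to find smaller changes. Shared sequence was counted in 31-base stretches of GENCODE transcripts. RefSeq windows (GRCm38.p6) were found for 10 of the 10 genes.

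Named genes are the 10 members, the 2 genes with the smallest p-value without control replicate 2 in each group of the wider list, any called gene of that list, and the 3 genes most like the member with the smallest p-value. Members and lists were chosen with earlier results of these data known. Tables and plots were made in numpy 2.4.6, pandas 2.3.3 and matplotlib 3.10.9.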

Additional observations from a re-analysis of the deposited data

How the results depend on the processing

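Under the alternatives run, 0 of the 9 tested genes and 0 of the 52 further genes were called, with all libraries and without control replicate 2, except where PM2.5 replicate 3 was also left out (5 and 29). Leaving out each library beside control replicate 2 thus gave 0 to 5 and 0 to 29. Over all genes, 11 were called (4 higher, 7 lower). In limma this was 0 with no filter, 0 with voom and 0 with the replicate block (875, 423 and 335 genes at unadjusted p-values under 0.05) and 6 (3 higher, 3 lower) with scaling to the read totals, which moved the median of all genes from 0.020 to 0.13 on the log2 scale. It was 0 to 118 with each library left out, with 118 without control replicate 2 and 0 without any other (197 to 627 at an unadjusted p-value under 0.05). The 118 became 41 without a filter, 92 with the replicate block, and 0 to 5602 with a further library left out, with 5602 without PM2.5 replicate 3 and 0 without any other (670 to 1202 at an unadjusted p-value under 0.05).

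With all libraries, the log2 fold change changed sign with scaling to the totals for Dnm1l (0.11) and Tfam (0.061), and with quantile normalization for Nrf1 (-0.021). With each library left out it ranged from -0.23 to 0.091 for Dnm1l, -0.055 to 0.038 for Nrf1, -0.14 to 0.40 for Opa1, -0.79 to 0.17 for Pink1, -0.057 to 0.15 for Polg and -0.21 to 0.029 for Tfam. Without control replicate 2, the replicate block gave -0.012 for Pink1, and leaving out a further library gave -0.21 to 0.0092 for Fis1, -0.012 to 0.40 for Pink1 and -0.0063 to 0.20 for Polg. Mfn1 and Mfn2 kept their direction in all alternatives run, which for libraries left out follows from groups that did not overlap. Distances from the group mean correlated across genes between same-numbered libraries with an r of -0.28, 0.18 and 0.25 for numbers 1, 2 and 3. With each PM2.5 library, control replicates 1 and 3 had an r of the same sign and control replicate 2 the opposite sign. As the control mean includes that outlying library, these values could not decide whether the numbers pair the libraries. No pairing is stated in the labels, so none was taken, and the block changed no call of the 9 genes. For these changes the cause was not tested. Ppargc1a and 5 genes of the wider list were under the filter, and Ppargc1a had at most 21 reads in any library, where counting error is large.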
